A study of Triticum aestivum with 10 samples.

Results

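The report describes 135 array probes, of 37826 on the array, that detected less RNA in cold leaves and more RNA in cold shoots of a wheat line with hybrid necrosis than in a wild-type line. A probe was a member if its signal stood well above background on the 2 wild-type leaf arrays and on the 2 necrotic shoot arrays at 4 °C, at least 2-fold lower in the necrotic than in the wild-type leaf, and at least 2-fold higher in the necrotic than in the wild-type shoot. The members were thus chosen by the line differences themselves, and these are given below as a description with no test. All samples came from synthetic hexaploid wheat, which unites the chromosome sets of a tetraploid wheat and of the wild grass Aegilops tauschii. The reference line was of wild-type phenotype, and the necrotic line had cold-induced hybrid necrosis. Every plant was first grown at 23 °C for 3 weeks. There were 2 arrays, each of 1 RNA sample, for each of 5 groups. These were leaves of the necrotic line at the end of the 3 weeks at 23 °C, leaves of each line after 12 further weeks at 4 °C, and shoot meristem samples of each line after 6 further weeks at 4 °C. No warm-grown leaf of the wild-type line was analysed here. Because each phenotype was represented by 1 line, the disorder and any other difference between the lines cannot be told apart. The labels name neither the parents of the lines nor their genotypes. They do not say how many plants went into a sample or whether the replicates came from separate plants, although the series text speaks of independent experiments, so the p-values measure only the spread between these samples.

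Hybrid necrosis is a disorder of some plant hybrids in which tissue declines and dies without a pathogen, and in many plants it is known to arise from an autoimmune response set off when immune genes of the parents meet. In wheat several types are known, and the cold-induced type appears when the plants grow at low temperature. A leaf is a mature photosynthetic organ, whereas the shoot meristem is the tip of dividing cells from which leaves and later the ear are formed, so the organs differ widely in which genes they use. Hexaploid wheat carries related copies of most genes on its A, B and D chromosome sets, and a single probe may detect RNA from more than 1 of them. The members carry names of expressed-sequence contigs or clones, with 0 gene names among them, and 0 matched the table of reference genes used here. They are therefore described by probe name, and no role is given to any of them.

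Levels below are log2 processed signals minus the array's 75th percentile, so that a difference of 1 is 2-fold. The number of probes well above background was 28487 to 32630 per array, and saturation affected 0 spots. Across probes, r between the 2 arrays of a group was 0.994 to 0.997, with a median absolute difference of 0.0712 to 0.118. The unscaled 75th percentile was 789 and 808 for the warm leaf arrays but 1539 to 1901 for the cold ones. The number of arrays, 2 per group, limits the precision of every value. Of 8 lists of marker genes, 7 matched 0 probe names and the list of cold-responsive genes matched 3 probes, none of them a member. Names made of 3 letters or fewer, such as COR, LEA and CBF on the cold list, were left out of this search. The labelled tissues could therefore not be checked against markers of photosynthesis or of dividing cells. In such bulk samples fewer cells of a type and less RNA per cell cannot be told apart.

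The members were on average moderately lower in the necrotic leaf and more strongly higher in the necrotic shoot. The median line difference in leaf was −1.36, or 2.57-fold lower, with a range from −4.78 to −1.002. In shoot the median was 1.89, or 3.70-fold higher, with a range from 1.0001 to 5.14. Over all probes the medians were −0.07 in leaf and −0.05 in shoot. These medians and ranges take dim signals as read. Of the 116 members well above background on both arrays of the necrotic leaf too, 20 differed by at least 2 on the log2 scale and 2 by at least 3, while 76 differed by less than 1.5. Of the 114 well above background on both arrays of the wild-type shoot too, 47 differed by at least 2, 17 by at least 3, and 37 by less than 1.5. All of these counts follow from values that the selection used. On the whole array 1098 probes (2.9%) met the leaf side of the selection and 3757 (9.93%) met the shoot side, and the members were 12.3% of the former and 3.59% of the latter.

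**Figure D1:**
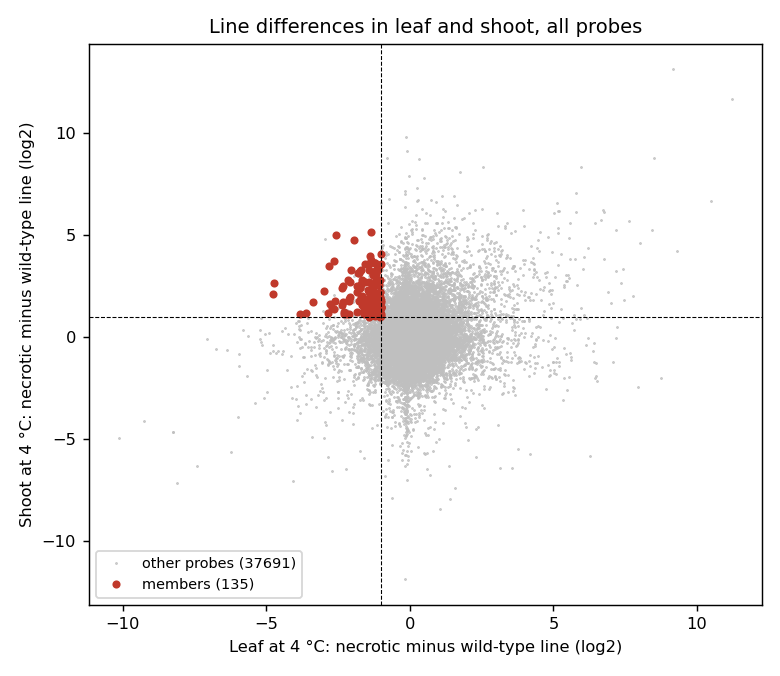
Line difference (necrotic minus wild-type, log2) in leaf at 4 °C on the x axis and in shoot at 4 °C on the y axis for all probes, each point the difference of 2 group means. The 135 members (red) lie beyond both dashed thresholds, mostly close to the leaf threshold, while in shoot they reach 5.14.

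The thresholds ran through a dense part of the distribution. The member closest to the leaf threshold was wheat0130Contig4431 at −1.0023, and the nearest probe outside it, rwhsc2d15_92, stood at −0.99996 with a shoot difference of 1.99. Closest to the shoot threshold was the member whec5f23_497 at 1.0001, and the nearest probe outside, MUGEST2003_23lib_Contig14762_345, stood at 0.984. Within 0.1 of the leaf threshold there were 30 members and 39 probes outside that met the other conditions. Within 0.1 of the shoot threshold there were 9 members and 10 such probes.

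Most members were measurable in every cold group. In the necrotic leaf at 4 °C 116 members were well above background on both arrays, 9 on 1 array and 10 on neither. In the wild-type shoot the numbers were 114, 5 and 16. Together 100 members were well above background on both arrays of all 4 cold groups, and 92 of these also at 23 °C. Where a probe was not well above background in the dim group, only a bound exists, namely the bright group's mean over the lowest signal that counted as well above background or the probe's own signal if higher. For the 10 such members in leaf the wild-type leaf was at least 1.44-fold to at least 10.01-fold above the necrotic leaf. For the 16 in shoot the necrotic shoot was at least 1.58-fold to at least 17.7-fold above the wild-type shoot. For 2 members neither the necrotic leaf nor the wild-type shoot gave a level well above background.

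The members took 2 main shapes over the 4 cold groups, with dim signals taken as read. The selection allows only the wild-type leaf or the necrotic shoot as the highest group. It likewise allows only the necrotic leaf or the wild-type shoot as the lowest. For 75 members the wild-type leaf was the highest group and the wild-type shoot the lowest, so that both necrotic groups lay between the wild-type ones. For 44 members the necrotic shoot was the highest and the necrotic leaf the lowest, so that both wild-type groups lay between the necrotic ones. The other orders that the selection allows were rarer, with the wild-type leaf highest and the necrotic leaf lowest in 7 members, and the necrotic shoot highest and the wild-type shoot lowest in 9. The raised level in the necrotic shoot was within 2-fold of the wild-type leaf level in 34 members, at least 2-fold above it in 37 and at least 2-fold below it in 64, with a median difference of −0.83. The median level of the members was −1.10 in the wild-type leaf, −3.13 in the necrotic leaf, −4.12 in the wild-type shoot and −1.95 in the necrotic shoot.

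**Figure D2:**
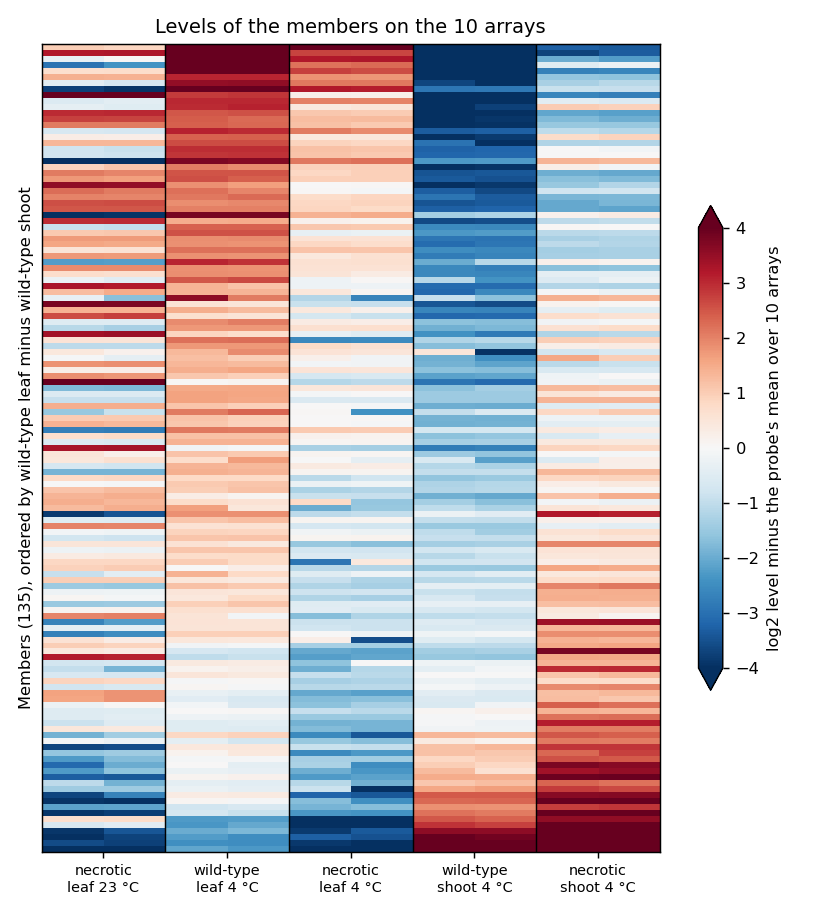
Levels of the 135 members (rows) on the 10 arrays (columns, 2 per group), each as the log2 level minus that probe's mean over the 10 arrays, with rows ordered by the wild-type leaf minus wild-type shoot difference. Upper rows are high in wild-type leaf and low in wild-type shoot, the lowest rows are high in both shoot groups, and the 2 columns at 23 °C are high for some rows and low for others.

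Among members measured in all 4 cold groups, wheat0130Contig4923 had the largest fall in the necrotic leaf. Its levels were −0.75 and −0.73 in the wild-type leaf and −5.55 and −5.49 in the necrotic leaf. In shoot they were −4.17 and −4.06 in the wild-type line and −1.98 and −2.04 in the necrotic line. The groups did not overlap in either tissue, and the line with the higher level changed from wild-type in leaf to necrotic in shoot. The difference was 27.5-fold in leaf and 4.30-fold in shoot. At 23 °C the necrotic leaf read −2.40 and −2.45, which was below the wild-type cold leaf and above the necrotic cold leaf.

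The second largest fall in leaf belonged to wheat0130Contig9851. Its levels were −1.06 and −1.04 in the wild-type leaf against −4.59 and −4.79 in the necrotic leaf, a 12.4-fold difference. In shoot it read 1.05 and 1.06 in the wild-type line and 2.24 and 2.27 in the necrotic line, which is 2.29-fold. Both shoot groups thus lay above both leaf groups for this probe, unlike wheat0130Contig4923, whose wild-type leaf was its highest group. The 23 °C leaf arrays of wheat0130Contig9851, at −5.07 and −4.07, enclosed the range of the necrotic cold leaf.

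The largest rise in shoot among members measured in all 4 cold groups was that of rwhr4g17. It stood at −4.80 and −4.70 in the wild-type shoot and at 0.39 and 0.39 in the necrotic shoot, a 35.3-fold difference. In leaf it was low in both lines, at −4.08 and −4.21 in the wild-type line and at −5.46 and −5.55 in the necrotic line, or 2.57-fold lower. The necrotic shoot was therefore the only one of the 5 groups in which this probe had a level above 0, and the 23 °C leaf at −2.98 and −3.09 came next.

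A different profile belonged to rwhkv9g07_465, which had the second largest rise among the same members. The wild-type shoot read −5.76 and −5.57 and the necrotic shoot −1.01 and −0.86, a 26.6-fold difference. The wild-type leaf read 0.63 and 0.65 and the necrotic leaf −1.33 and −1.29, which was 3.86-fold lower. The wild-type shoot stood apart as the lowest group, and both necrotic tissues were at similar levels. Leaf and shoot differed by −0.38 in the necrotic line and by 6.30 in the wild-type line, which follows in large part from the selection on these arrays.

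A pair of members combined large differences in both tissues. For wheat0130Contig7298 the wild-type leaf read −2.26 and −2.25 and the necrotic leaf −5.13 and −5.03, which is 7.08-fold lower. The wild-type shoot read −4.31 and −4.53 and the necrotic shoot −0.89 and −0.98, which is 11.2-fold higher. The necrotic shoot was its highest group and the necrotic leaf its lowest at 4 °C, with no overlap between lines. At 23 °C neither array was well above background for this probe. For wheat0130Contig5509 the differences were nearly equal in size. It read −2.00 and −2.14 in the wild-type leaf against −4.37 and −4.51 in the necrotic leaf, 5.16-fold lower. In shoot it read −3.55 and −3.59 in the wild-type line against −1.24 and −1.07 in the necrotic line, 5.32-fold higher. Here too the necrotic groups were the highest and the lowest of the cold groups.

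**Figure D3:**
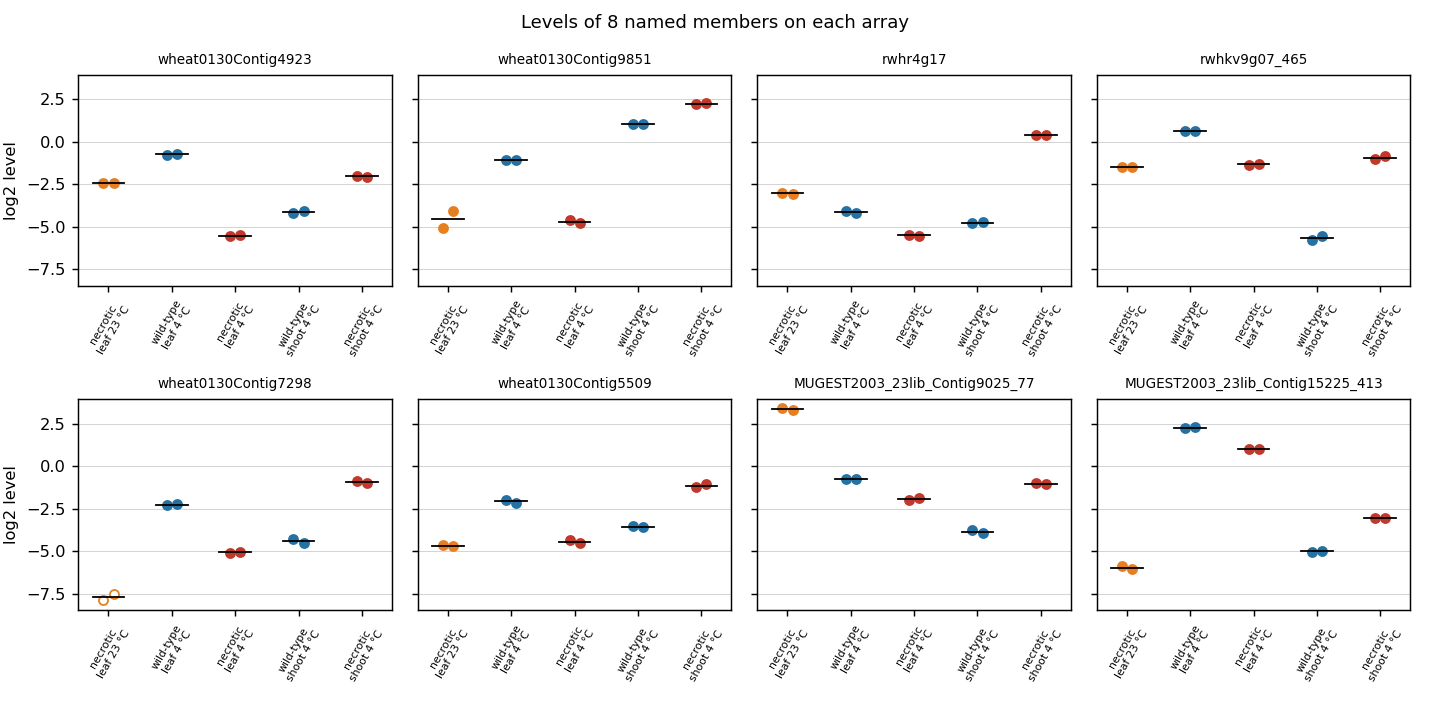
Log2 level (y axis) of 8 members on each of the 10 arrays, with a point per array (open where not well above background) and a line at the mean of the 2 arrays of a group. wheat0130Contig4923 falls from −0.74 to −5.52 between the leaf groups at 4 °C, rwhr4g17 lies above 0 only in the necrotic shoot, and the last 2 panels show opposite differences between 23 °C and 4 °C.

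The replicate arrays of nearly all members lay close together. The median of a member's largest replicate gap in any cold group was 0.19, and 28 members had a gap above 0.5. A gap above 1 occurred in 16 members, with 9 such gaps in the cold necrotic leaf, 6 in the wild-type shoot, 2 in the wild-type leaf and 0 in the necrotic shoot. In leaf both necrotic arrays lay below both wild-type arrays for 134 of the 135 members, where 38.0% of all probes did so. In shoot both necrotic arrays lay above both wild-type arrays for 134, where 37.6% of all probes did so. These counts are fixed largely by the selection itself.

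The exceptions, named because their arrays overlapped, were wheat0130Contig6868 and whkp12n12_100. wheat0130Contig6868 read −2.08 and −2.22 in the wild-type leaf and −2.02 and −4.36 in the necrotic leaf, so that its lower mean in leaf rested on 1 array. In whkp12n12_100 the wild-type shoot arrays read −6.26 and −10.7 and the necrotic shoot arrays −7.48 and −7.37, so that the higher wild-type array lay above both necrotic ones. Another member, rwhyf10n22, had 1 spot marked as an outlier by the scanner software, at −2.36 in the necrotic leaf against −0.79 on the other array. The wild-type leaf read −0.37 and −0.42 for this probe. The selection counted that spot, the tests below left it out, and without it rwhyf10n22 would not have met the leaf threshold.

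In 3 further members the fall in leaf of at least 4-fold also rested on 1 array. Both wild-type arrays of wheat0130Contig15114 read −4.48 and −4.51 against −4.68 and −8.48 in the necrotic leaf, where the low array was not well above background. Without the low array the line difference changed from −2.08 to −0.18. For whr8e04 the wild-type leaf read −4.36 and −4.63 and the necrotic leaf −8.30 and −4.95, where the low array was not well above background, and without it the difference changed from −2.13 to −0.46. For MUGEST2003_23lib_Contig22167_603 the wild-type leaf read 2.12 and 2.04 and the necrotic leaf 1.55 and −1.96, and the difference changed from −2.28 to −0.53. Most members that depended on 1 array were closer to the threshold. The leaf difference fell under 2-fold for 6 and 18 members without replicate 1 or 2 of the necrotic leaf and for 13 and 7 without replicate 1 or 2 of the wild-type leaf. The shoot difference did so for 1 and 7 without replicate 1 or 2 of the necrotic shoot and for 2 and 7 without replicate 1 or 2 of the wild-type shoot.

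Cold and warm leaves of the necrotic line were compared next, using 2 arrays at 23 °C that the selection had not used and the 2 necrotic leaf arrays at 4 °C that it had. The members did not share 1 response. Cold leaves had 28 members at least 2-fold above the warm ones (20.7%, where 12.2% of all tested probes were called higher), 53 were lower (39.3%, where 18.2% were called lower), and 54 were not called (limma, adjusted p below 0.05 and at least 2-fold). Of the 105 members well above background in both groups, 19 were called higher (18.1%), 47 lower (44.8%) and 39 neither. Of all tested probes so measured, 10.55% were called higher and 17.0% lower. The median difference was −0.52 over the members and −0.18 over all tested probes. The selection favours probes that are low on the cold necrotic leaf arrays. In 2 other sets of probes that were also at least 2-fold lower there, the share called lower was of the same order and the share called higher was smaller. Among the 262 probes lower in the necrotic line in both tissues 45.0% were lower at 4 °C and 16.0% higher. Among the 683 lower in leaf and less than 2-fold different in shoot the shares were 40.6% and 10.8%. Restricted to probes well above background in both groups, 53.0% were lower and 8.93% higher in the former set. In the latter set these shares were 43.2% and 8.09%. The differences between these sets were not tested. With normexp background correction 15 members were called higher and 49 lower, and with only probes that were well above background on each of the 10 arrays 16 were called higher. The warm leaf arrays shared a slide and scan with no other group and came from plants 12 weeks younger, so temperature, slide and age cannot be told apart.

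The largest falls among members measured in both necrotic leaf groups were found in MUGEST2003_23lib_Contig9025_77 and whh17i06. The former read 3.41 and 3.34 at 23 °C and −1.98 and −1.89 in the necrotic leaf at 4 °C, a 39.5-fold fall (log2 −5.31, SE 0.073, adjusted p = 1.16e-08). Its wild-type cold leaf read −0.78 and −0.72, so that the warm necrotic leaf lay far above the cold leaves of both lines. For whh17i06 the levels were 3.31 and 3.23 at 23 °C against −2.05 and −1.94 at 4 °C, a 38.5-fold fall (log2 −5.27, SE 0.066, adjusted p = 8.56e-09). This probe also rose 8.41-fold in the necrotic over the wild-type shoot, from −1.37 and −1.44 to 1.68 and 1.66. In MUGEST2003_23lib_Contig9025_77 the shoot levels were −3.76 and −3.93 in the wild-type line and −0.96 and −1.07 in the necrotic line, 7.11-fold apart. In both probes the 23 °C leaf was the highest of the 5 groups and the wild-type and necrotic cold leaves differed by little more than the 2-fold threshold.

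Among members measured in both necrotic leaf groups, the largest rise with cold was that of MUGEST2003_23lib_Contig15225_413. It read −5.88 and −6.06 at 23 °C and 1.05 and 1.003 in the necrotic leaf at 4 °C, a 128-fold rise (log2 6.997, SE 0.071, adjusted p = 4.25e-09). The wild-type cold leaf was higher still, at 2.23 and 2.34. In shoot it was low in both lines, at −5.04 and −5.00 in the wild-type and −3.03 and −3.08 in the necrotic line. The cold leaves of both lines thus lay far above the other 3 groups for this probe. The size of this probe's rise with cold depended on the processing. It ranged from log2 4.586 to 7.115 over the alternative settings and from 6.906 to 7.088 leaving out 1 array. rwhv16n14c11_213 had the same order with smaller steps. It read −5.50 and −5.57 at 23 °C, −1.73 and −1.76 in the necrotic cold leaf and −0.67 and −0.71 in the wild-type cold leaf. Its rise with cold was 13.8-fold (log2 3.79, SE 0.051, adjusted p = 1.1e-08), and its line differences, 2.08-fold in leaf and 2.08-fold in shoot, were close to the threshold. Over the alternative settings this rise ranged from log2 1.938 to 3.905.

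Members undetected on 1 side showed both directions. The lowest level that counted as well above background was −7.24 and −7.16 on the warm arrays. On the cold necrotic leaf arrays it was −8.18 and −8.14, so a probe was more easily left undetected at 23 °C. Of the 28 members called higher at 4 °C, 9 were well above background on neither array at 23 °C. Over all members, 10 had a level at 4 °C against none well above background at 23 °C, with the cold leaf at least 1.104-fold to at least 35.0-fold higher and 5 of these bounds at 2-fold or more. The highest bound was that of MUGEST2003_23lib_Contig2929_83, which read −2.11 and −2.03 in the cold necrotic leaf. One of the 10 was wheat0130Contig7298, at least 4.34-fold higher, although its difference had the opposite sign under normexp correction (−0.26). Another 3 members were measured at 23 °C and not at 4 °C in the necrotic leaf, which was at least 6.77-fold to at least 11.2-fold lower. For 6 members neither necrotic leaf group was well above background.

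**Figure D4:**
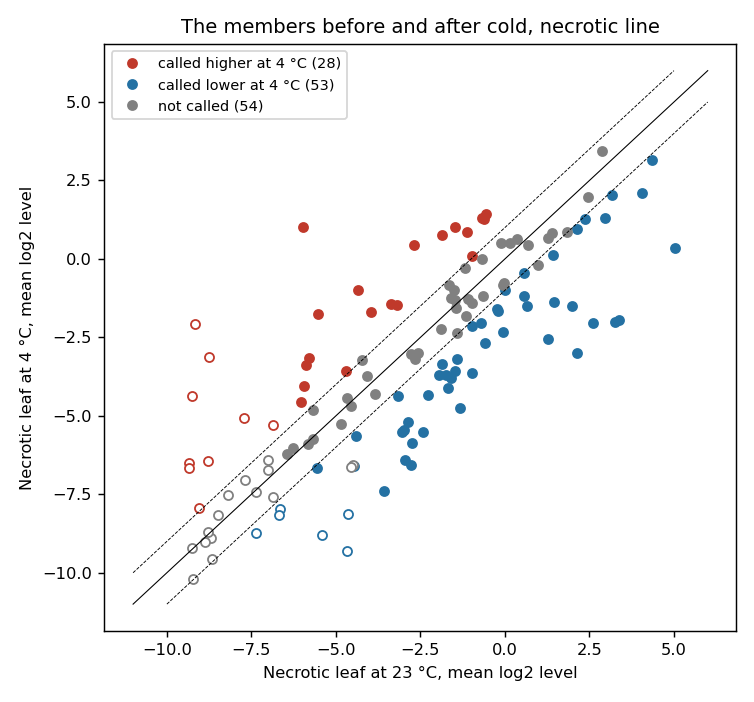
Mean log2 level of each of the 135 members in the necrotic leaf at 23 °C (x axis) and at 4 °C (y axis), coloured by the limma call and open where either group was not well above background on both arrays. Points on the solid line are equal and the dashed lines mark 2-fold, with 53 members called lower, 28 called higher and 54 not called.

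The place of the warm necrotic leaf relative to the cold leaves of the 2 lines also varied. Of the 110 members well above background on both arrays at 23 °C, 40 were higher at 23 °C than in the wild-type cold leaf and 35 were lower than in the necrotic cold leaf. The other 35 lay between, 17 nearer to the wild-type and 18 nearer to the necrotic cold leaf. The warm level was within 2-fold of the wild-type cold leaf in 43 members and within 2-fold of the necrotic cold leaf in 38. The median warm level was 0.56 log2 units below the wild-type cold leaf (−0.56) and 0.86 above the necrotic cold leaf.

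Leaf and shoot were then compared within each line at 4 °C, over the arrays that the selection had used. In the wild-type line 98 members were at least 2-fold higher in leaf (72.6%, where 23.8% of all tested probes were), 13 were higher in shoot (9.63%, where 34.5% were), and 24 were called in neither direction. In the necrotic line 32 members were higher in leaf (23.7%, where 16.6% of all tested probes were), 62 were higher in shoot (45.9%, where 29.6% were) and 41 were called in neither direction. With quantile normalization or scaling to the median, 43 members were higher in the necrotic leaf and 54 in the necrotic shoot. The median difference of leaf over shoot was 2.65 in the wild-type line and −0.80 in the necrotic line. Restricted to members well above background on both sides, the median was 2.18 over 114 members in the wild-type line (77 higher in leaf and 13 in shoot) and −0.31 over 116 members in the necrotic line (32 higher in leaf and 46 in shoot). Of all tested probes so measured, 25.4% were higher in leaf and 29.0% in shoot in the wild-type line. In the necrotic line the shares were 17.3% and 24.5%. A shift of at least 2 log2 units between the lines follows from the selection, so these counts give only where the members stood on the scale from leaf to shoot. Leaf and shoot also lay on different slides and had 12 and 6 weeks of cold, so tissue, slide and time in cold cannot be told apart.

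By their tissue call in the wild-type line the members fell into 3 groups, called leaf-rich, shoot-rich and without a tissue call. Of the 98 that were higher in wild-type leaf, 32 stayed higher in leaf in the necrotic line, 26 were higher in shoot there and 40 were called in neither direction. Their median leaf over shoot difference was 3.40 in the wild-type and 0.40 in the necrotic line. All 13 members that were higher in wild-type shoot were also higher in the necrotic shoot, where the median difference moved from −2.92 to −7.19. Of the 24 members called in neither direction in the wild-type line, 23 were higher in the necrotic shoot, where 29.6% of all tested probes were. These counts and the shifts of the medians follow in large part from the selection. It sets every member's leaf over shoot difference at least 2 log2 units lower in the necrotic than in the wild-type line. For the 13 shoot-rich members the direction and the 2-fold size in the necrotic line were thus fixed in advance. The wild-type leaf-rich members included MUGEST2003_23lib_Contig15225_413, whose wild-type leaf was 158-fold above the wild-type shoot and whose necrotic leaf was 16.9-fold above the necrotic shoot. Among the shoot-rich members was wheat0130Contig9851, 4.31-fold higher in shoot in the wild-type line and 123-fold in the necrotic line.

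The temperature calls in these groups also differed in number, with no test made. Among the 98 leaf-rich members 39 were lower and 23 higher at 4 °C in the necrotic leaf. Among the 13 shoot-rich members 2 were lower and 4 higher. Among the 24 without a tissue call in the wild-type line 12 were lower and 1 was higher. Over all tested probes the shares were 18.2% lower and 12.2% higher. The necrotic leaf arrays at 4 °C were used by the selection, and the shoot-rich group is small.

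Some members have a second probe on the array with the same clone or contig name, which differs only in a leading r, in a _p or _m, or in a final number. What these marks stand for is not given in the sources used here, so a shared name does not establish that both probes detect the same RNA. Except for rwhkp12n12_196 and whkp12n12_100, which are both members and share a name, the second probes were not used to choose the members. They were read on the same arrays, however, and the comparison was made after the members' values were known. Of the 135 members 23 had such a probe, and 12 of these second probes were well above background on both arrays of all 4 cold groups. In leaf 10 of the 12 were lower in the necrotic line (limma, adjusted p below 0.05 with no fold required, where 29.4% of all tested probes were lower). In shoot 11 of the 12 were higher (where 32.3% were higher). The same 10 were called in both tissues. The difference between the leaf and shoot line differences was itself called for 11, with the leaf one below the shoot one. Of all tested probes 32.7% were called that way. For 1 of the 12 the difference was called the other way round. Because leaf and shoot differed in slide and in time in cold, tissue cannot be told apart from these here either. Shared directions were not particular to these pairs. For probes lower in the necrotic line in both tissues, 15 of 22 measured second probes were called in the same directions in both. The numbers were 43 of 71 for probes higher in both and 4 of 8 for those higher in leaf and lower in shoot.

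The sizes of the second probes' line differences can be set beside those of the members only as a description, because the members were selected for large differences and the second probes were not. Their median line difference was −0.51 in leaf and 1.001 in shoot, against −1.28 and 1.62 for their 12 members. None of the 12 (0) reached 2-fold in both tissues, 2 were at least 2-fold lower in leaf and 6 at least 2-fold higher in shoot. For the pair sharing the name h5c24, the second probe whh5c24 read −0.56 and −0.75 in the wild-type leaf, −2.06 and −2.13 in the necrotic leaf. Its shoot levels were −3.43 and −3.48 in the wild-type line and −2.53 and −2.58 in the necrotic line. The arrays of the lines did not overlap in either tissue, with differences of −1.44 (SE 0.074, adjusted p = 1.11e-05) and 0.90 (SE 0.074, adjusted p = 4.51e-05). MUGEST2003_23lib_Contig10386_p_446 differed by −1.07 (SE 0.059, adjusted p = 1.52e-05) in leaf and 0.82 (SE 0.059, adjusted p = 2.34e-05) in shoot. whr9n08 had a small leaf difference of −0.23 (SE 0.055, adjusted p = 0.0128) beside a shoot difference of 2.04 (SE 0.055, adjusted p = 2.8e-07).

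The second probe of rwhr4g17, the member with the largest rise in shoot, went the other way. This probe, whr4g17, read −6.21 and −6.02 in the wild-type leaf and −6.13 and −5.79 in the necrotic leaf, where the arrays overlapped. In shoot it read −0.36 and −0.30 in the wild-type line and −1.66 and −1.58 in the necrotic line, a fall of 1.29 on the log2 scale (−1.29, SE 0.127, adjusted p = 0.000109). Its leaf difference was 0.15 (SE 0.127, adjusted p = 0.346), and its leaf difference exceeded its shoot difference by 1.44 (adjusted p = 0.000432). rwhr8e04, the second probe of whr8e04, differed in shoot by 1.28 (adjusted p = 2.77e-06) and in leaf by −0.02 (SE 0.059, adjusted p = 0.763), where the −2.13 of its member rested on 1 array, as described above. Another 11 second probes were not measured in all 4 cold groups. Of these wheat0130Contig3033_2, well above background on all shoot arrays, was also lower in the necrotic shoot (−0.56, limma, adjusted p = 0.0299). Its contrast of leaf and shoot line differences was not called (0.23, limma, adjusted p = 0.461). The rest of the 11 read higher in the necrotic shoot, with dim signals taken as read. As background for such pairs, over the 1499 name-sharing pairs of the whole array that were measured in the cold groups the line differences of both probes correlated at r = 0.662 in leaf and r = 0.707 in shoot across pairs, all read on the same arrays.

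**Figure D5:**
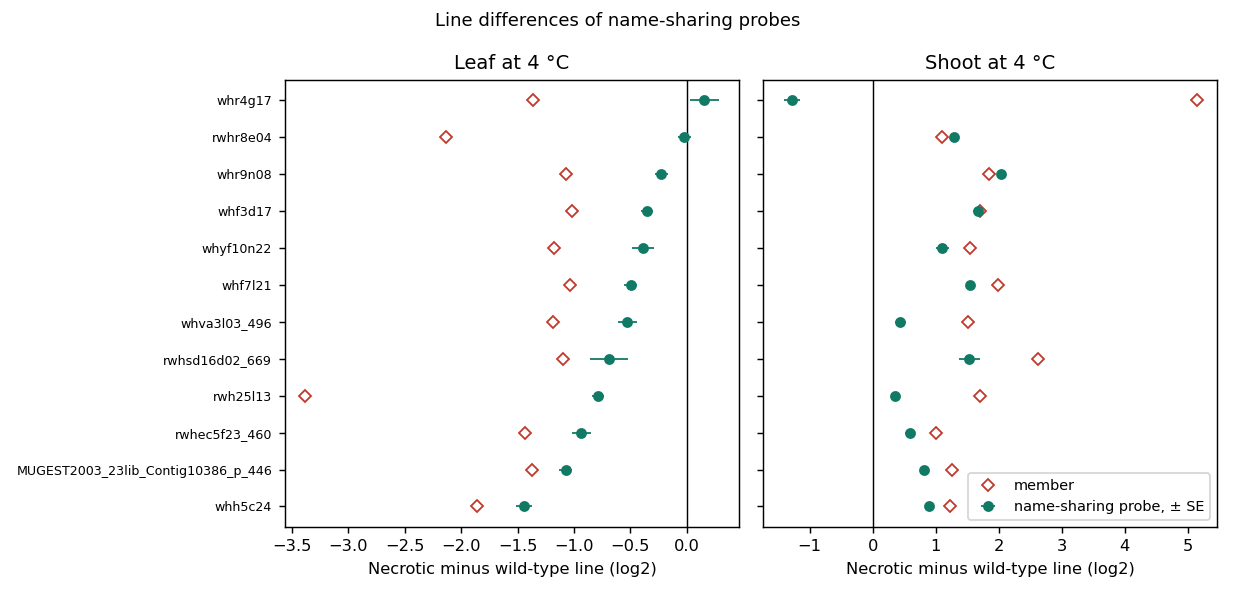
Line difference (necrotic minus wild-type, log2) in leaf and in shoot at 4 °C for the 12 measured name-sharing probes (filled circles, with the standard error of the limma fit) and for the members they share a name with (open diamonds). Of the 12 circles 11 lie left of 0 in leaf and 11 right of 0 in shoot, and whr4g17 lies on the opposite side in both.

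Only 1 pair of members shared a clone name with each other, rwhkp12n12_196 and whkp12n12_100. rwhkp12n12_196 read −4.64 and −4.79 in the wild-type leaf and −5.75 and −5.72 in the necrotic leaf, 2.03-fold lower. In shoot neither wild-type array was well above background and the necrotic arrays read −6.44 and −6.78, at least 3.53-fold higher. whkp12n12_100 read −5.46 and −4.87 in the wild-type leaf and −6.20 and −6.25 in the necrotic leaf, 2.09-fold lower, and its shoot arrays overlapped as described above. Both probes thus had the same order in leaf, and in shoot only rwhkp12n12_196 had groups that did not overlap.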

How the data were processed

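Members and lists were chosen with earlier results of these data known. The authors deposited scanner tables of linear Cy3 spot intensity, written by Agilent Feature Extraction (10.5.1.1 per the file headers, 9.5 per the submitters' processing notes). Per the file headers, this intensity is background-subtracted and detrended but not scaled between arrays. The deposited series matrix equals the scanner intensity (largest relative difference 0). The level was log2 intensity minus the array's 75th percentile over the 37826 non-control probes. limma 3.58.1 in R 4.3.3 fitted 1 mean per group over the 10 arrays, for the 33100 probes that were well above background throughout 1 or more groups, without outlier spots (5 residual and 1.56 prior degrees of freedom, median residual SD 0.078). P-values were two-sided, adjusted by Benjamini-Hochberg over all tested probes. The fit was tested on simulated data.

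Per the file headers the warm leaves were on slide 1, all shoots on slide 2 and all cold leaves on slide 3, each scanned once. Line differences are thus within-slide, and the temperature and tissue comparisons lie between slides.

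Named members were, among those measured in all 4 cold groups, the 2 with the largest fall in leaf, the 2 with the largest rise in shoot and the 2 largest in the smaller of both, then the 2 largest rises and falls from 23 °C to 4 °C among members well above background on both arrays of both necrotic leaf groups, those sharing a name, and those at the thresholds. wheat0130Contig6868, rwhyf10n22, the members resting on 1 array, MUGEST2003_23lib_Contig2929_83, the second probes and the pairs in the closing section were added after their values were seen. Alternatives were normexp (offset 50), applied to median spot and background signals because mean signals were not used here, quantile normalization, median scaling, other filters, outlier spots kept or left out, an intensity trend, only the 2 groups compared, a replicate block and leaving out each array. No probe sequence or gene description was used here, and of 37826 names 0 matched the reference genes.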

Additional observations from a re-analysis of the deposited data

Results flagged for a closer look

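The line difference itself differed between leaf and shoot for 11 of the 12 measured probes that share a clone or contig name with a member, with the leaf difference below the shoot difference (limma contrast of both line differences, adjusted p below 0.05, where 32.7% of all tested probes were called that way). The size of that contrast was −1.89 (SE 0.084) for MUGEST2003_23lib_Contig10386_p_446, −2.34 (SE 0.105) for whh5c24 and −2.26 (SE 0.078) for whr9n08, and 1.44 (SE 0.18) for whr4g17, which was called the other way. The pattern was noticed after the values of these probes were seen. The members themselves have this contrast by selection and are not counted. Each line difference was within a slide, but leaf and shoot lay on different slides and had different times in cold. Tissue, slide and time in cold thus cannot be told apart in this contrast. Shared directions were not particular to these pairs. Called as their partners in both tissues were 10 of 12 second probes here and 15 of 22 for probes lower in the necrotic line in both tissues. They were 43 of 71 for probes higher in both and 4 of 8 for those higher in leaf and lower in shoot. Of these sets, in this order, 0, 7, 26 and 2 second probes reached 2-fold in both tissues.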

How the results depend on the processing

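The 135 members became 58 with normexp correction (54 of them among the 135), 33 at a 3-fold threshold and 121 to 151 when 1 array was left out. They were 134 with quantile normalization (118 shared), 142 with median scaling (126 shared), 179 with no filter on dim probes and 135 without outlier spots (134 shared). With normexp 15 members were higher at 4 °C. With only probes well above background on all arrays, which leaves 92 members, 16 were higher at 4 °C, 6 were higher in wild-type shoot and 39 in necrotic shoot. The median temperature difference was −0.813 with normexp, −0.372 with quantile normalization, −0.403 with median scaling and −0.861 with the all-array filter, and −0.566 to −0.433 leaving out 1 array. The median of all tested probes moved from −0.18 to −0.48 with normexp, −0.05 with quantile normalization and −0.07 with median scaling.

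Directions with temperature reversed for wheat0130Contig9851 (from −0.12 to 0.028 with quantile normalization and 0.375 without replicate 2 at 23 °C; not without replicate 1, −0.621), wheat0130Contig7298 (−0.257, normexp), wheat0130Contig5509 (−0.447, normexp), whkp12n12_100 (−0.701, normexp), rwhyf10n22 (−0.116 with its outlier spot kept) and rwhkp12n12_196 (from −0.046 to 0.13 with quantile normalization, 0.072 with median scaling and 0.0618 without replicate 2 at 23 °C; not without replicate 1, −0.154); apart from that spot, the cause was not tested. The other counts stayed within 1.5 times, and the 11 name-sharing probes stayed 11 in all 18 alternatives. The replicate numbers are shared across groups, but same-numbered arrays did not deviate together (correlations −0.022 to 0.116); with the replicate block the counts stayed at 28 and 53 for temperature, 98 and 13 in the wild-type and 32 and 62 in the necrotic line. Dim members limit what can be said: 21 were well above background on no array at 23 °C.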

Other observations

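Probe names can be grouped by how they begin. Of the 135 members 51 (37.8%) carry wheat0130 contig names, as do 36.9% of all probes, and 36 (26.7%) carry MUGEST2003 contig names, as do 20.1% of all probes. Clones named whr or rwhr made up 8 members (5.93%) and 1.85% of all probes, a group singled out after its values were seen. The labels do not say what the names stand for, and no test was made.

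The members include 2 pairs with different names and nearly equal differences in each comparison. MUGEST2003_23lib_Contig25356_286 and whec1a03_66 differed between the lines by −1.81 and −1.78 in leaf and by 3.14 and 3.16 in shoot, and with cold by 1.99 and 1.89. For wheat0130Contig1964 and whfl_allContig1741 the values were −1.02 and −1.05 in leaf, 1.49 and 1.47 in shoot, and −1.37 and −1.47 with cold. Whether either pair detects the same RNA was not tested, and the 135 members may therefore stand for fewer genes.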
